A study of Mus musculus with 14 samples.

Results

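The comparison described here sets all 7 kidneys of streptozotocin-treated mice against all 7 kidneys of mice without streptozotocin, across both birth groups. All 14 of the 14 samples of the series entered it, and they were chosen by their labels alone. RNA was sequenced from whole kidneys that were taken at 18 weeks of age from wild-type females of the outbred CD-1 stock. There were 4 term nondiabetic (T-ND), 4 term diabetic (T-D), 3 preterm nondiabetic (PT-ND) and 3 preterm diabetic (PT-D) mice, each giving 1 sample. The diabetic mice (D) had received streptozotocin (STZ) in early adulthood, weeks before the kidneys were taken, and the nondiabetic mice (ND) had not. Mice were also injected with cationic ferritin for imaging shortly before the kidneys were taken. Preterm (PT) mice had been delivered by Caesarean section and raised by foster mothers given acepromazine, whereas term (T) mice had not, so preterm birth stands for all of these. STZ had to be given again to some mice of the PT-D cohort and to none of the T-D cohort, and which samples came from those mice is not given in the sources used here. STZ itself and the hyperglycemia that followed it cannot be told apart in this design.

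STZ is a nitrosourea joined to glucose. It enters cells through the glucose transporter GLUT2, which pancreatic beta cells and kidney proximal tubule cells both carry, and it alkylates DNA. Alkylated or broken DNA activates the transcription factor p53, which raises cyclin-dependent kinase inhibitors, apoptosis genes and its own inhibitor Mdm2. In the diabetic kidney the filtered glucose is taken up by proximal tubule cells, and tubular injury and inflammation are well known in it.

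The question was which genes moved with STZ in term and preterm mice alike. It was addressed with a model that holds a diabetes term and a birth group term and no interaction. A gene was called a differentially expressed gene (DEG) when its adjusted p-value was below 0.05 and its log2 fold change, diabetic over nondiabetic, was above 1 or below −1. Values of samples are normalized counts, the deposited counts scaled to a common library size, and a group of 7 is given by its lowest, median and highest sample.

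The counts on genes ran from 16697246 to 28673176 per sample with a median of 18765582. No technical measure passed its test between D and ND. The largest difference was in the share of counts on mitochondrially encoded genes, which was 10.6% to 16.9% in D and 8.53% to 12.95% in ND (exact permutation test within birth groups, p = 0.0514, adjusted p = 0.209 over 8 measures). Xist was present in all samples and the Y-linked genes of the sex check did not pass the count filter. The proximal tubule receptor gene Lrp2 had 16819 to 35124 (median 26202) in diabetic and 32348 to 37307 (median 34462) in nondiabetic samples. The podocyte gene Nphs1 had 185 to 1207 (median 722) in diabetic and 198 to 665 (median 423) in nondiabetic samples. One sample stood apart. T-ND replicate 3 lay at 13.9 on the first principal component, where the diabetic samples lay between −1.05 and 22.96 and the other nondiabetic samples between −27.6 and −3.32. The counts of DEGs, in all and by list, are given with and without it.

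Of the 22339 genes tested, 60 were higher (0.269%) and 30 were lower (0.134%) in diabetic kidneys. By adjusted p alone, 93 were higher (0.416%) and 44 were lower (0.197%), and 3230 genes had an unadjusted p below 0.05. Of the higher DEGs, 10 were on the list of p53 targets and 9 on that of the cell cycle, and of the lower DEGs 2 were on the list of the loop of Henle and distal convoluted tubule. Every D sample lay above every ND sample for 62 genes (0.278%), 37 of them DEGs. Every D sample lay below every ND sample for 40 genes (0.179%), 6 of them DEGs. Without T-ND replicate 3 the counts were 352 higher and 118 lower, and 89 of the 90 DEGs were among them. In bulk RNA of whole kidney, fewer cells of a type and less RNA per cell cannot be told apart.

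**Figure D1:**
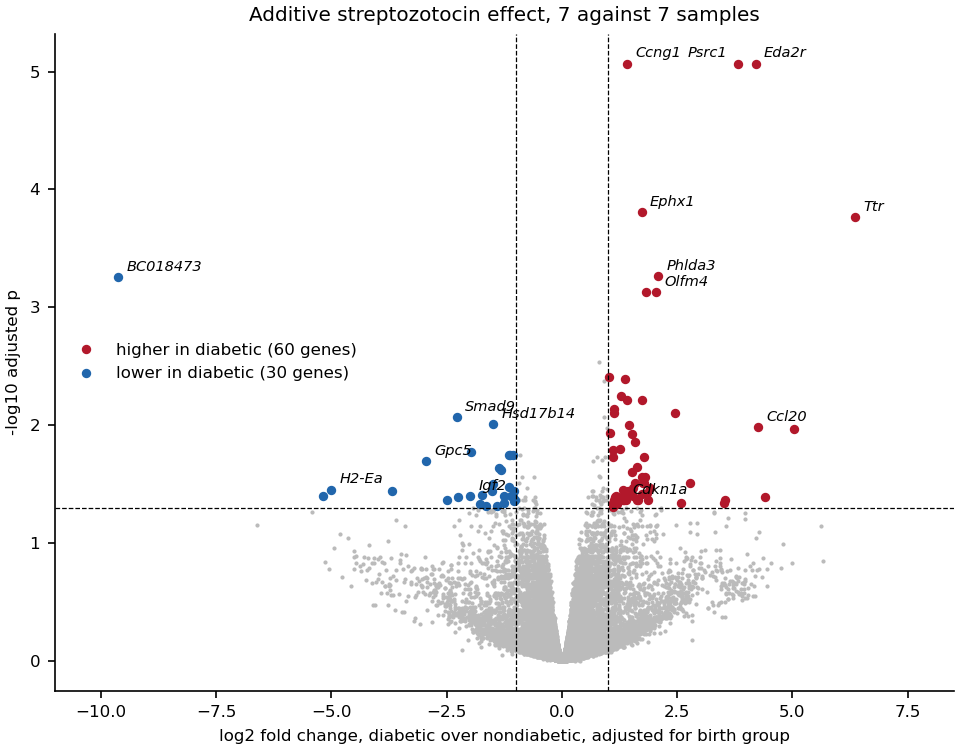
The log2 fold change of each of the 22339 genes (horizontal axis, diabetic over nondiabetic, adjusted for birth group) is plotted against the -log10 of its adjusted p-value (vertical axis), with dashed lines at the thresholds. The 60 higher DEGs are red and the 30 lower ones blue, and Ccng1, Psrc1 and Eda2r stand highest.

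Of the genes listed as p53 targets, 27 of 30 had a higher estimate in diabetic kidneys, against 50.8% of all genes tested. Of the 30 listed p53 targets, 30 were tested, 10 were DEGs, all higher, and 13 passed the adjusted p threshold, all higher. The background for a higher DEG was 0.269% of all genes. This and the other lists were chosen with earlier results of these data known. A share of DEGs set beside a background thus describes a list and tests nothing. The median log2 fold change of the 30 was 0.91, against 0.01 over all genes tested, with 0.91 in term and 0.88 in preterm mice. The number of DEGs among them was 14 without T-ND replicate 3 and 6 without T-ND replicate 1 or without T-D replicate 2.

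The 3 smallest adjusted p-values of all genes belonged to p53 targets. Ccng1 encodes cyclin G1, which recruits a phosphatase to Mdm2. Its lowest, median and highest normalized counts were 6812, 9018 and 10242 in D and 2965, 3172 and 3928 in ND, so the lowest diabetic sample lay well above the highest nondiabetic one. Its log2 fold change was 1.41 ± 0.12 (SE, adjusted p = 8.56e-06), or 2.66-fold, with 1.43 in term and 1.39 in preterm mice. Psrc1 encodes a microtubule-associated protein of the mitotic spindle. It had 62.5, 144 and 174 in D and 5.37, 6.39 and 13.8 in ND, without overlap, and a log2 fold change of 3.81 ± 0.32 (SE, adjusted p = 8.56e-06). Eda2r encodes the receptor for ectodysplasin A2, a member of the tumor necrosis factor receptor superfamily. It had 49.8, 130.0 and 219.9 in D and 4.19, 7.13 and 11.8 in ND, again without overlap, and a log2 fold change of 4.20 ± 0.35 (SE, adjusted p = 8.56e-06). All 3 stayed DEGs whichever of the 14 samples was left out.

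Phlda3, which encodes an inhibitor of the kinase AKT, had 202, 319 and 691 in D and 57.4, 94.99 and 114 in ND and a log2 fold change of 2.08 ± 0.24 (SE, adjusted p = 0.000544). Ephx1, the microsomal epoxide hydrolase, had 2064, 2842 and 3766 in D and 587, 839 and 1159 in ND and a log2 fold change of 1.73 ± 0.18 (SE, adjusted p = 0.000155). Zmat3, an RNA-binding zinc finger protein, had 439, 675 and 995 in D and 236, 314 and 356 in ND and a log2 fold change of 1.13 ± 0.17 (SE, adjusted p = 0.00732). The groups did not overlap for any of these, and all stayed DEGs whichever of the 14 samples was left out. The effect on Zmat3 differed between birth groups, with 0.70 in term and 1.70 in preterm mice and an interaction of 1.00 (adjusted p = 0.0301).

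Cdkn1a encodes p21, the cyclin-dependent kinase inhibitor through which p53 arrests the cell cycle. It had 3263, 4724 and 6125 in D and 569, 1935 and 3085 in ND. The lowest D sample was 3263 (T-D replicate 1) and the highest ND samples were 3085 (PT-ND replicate 1) and 2923 (T-ND replicate 3), so the groups were close but did not overlap. Its log2 fold change was 1.36 ± 0.29 (SE, adjusted p = 0.0433), and it was a DEG in 4 of the 14 fits that left out 1 sample. The other listed p53 targets among the DEGs were Plk2, a polo-like kinase, at 1.10 (adjusted p = 0.0188), Trp53inp1, a nuclear protein of apoptosis and autophagy, at 1.62 (adjusted p = 0.0226), and Bbc3, the apoptosis protein PUMA, at 1.18 (adjusted p = 0.0401). Plk2 was a DEG in 11 of the 14 fits that left out 1 sample. Mdm2, the ubiquitin ligase that degrades p53, had 1332, 1700.0 and 2081 in D and 898, 1083 and 1179 in ND, without overlap. Its log2 fold change of 0.67 ± 0.12 (SE, adjusted p = 0.0202) passed the adjusted p threshold and not the fold threshold. The same held for Pmaip1, the apoptosis protein NOXA, at 0.97 (adjusted p = 0.0105) and for the nuclease Aen at 0.76 (adjusted p = 0.0188).

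Other p53 targets did not pass. The death receptor gene Fas had a log2 fold change of 1.02 (adjusted p = 0.0722), the apoptosis gene Bax 0.21 (adjusted p = 0.655), the stress cytokine gene Gdf15 0.42 (adjusted p = 0.479) and Sesn2 0.31 (adjusted p = 0.694). Bax had 356 to 771 (median 516) in diabetic and 355 to 639 (median 422) in nondiabetic samples, which overlap. In preterm mice alone the estimates of Bax and Gdf15 were −0.28 and −0.03, against 0.57 and 0.77 in term mice. Sesn2 went the other way, with −0.32 in term and 1.155 in preterm mice. None of these 3 had a called interaction.

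**Figure D2:**
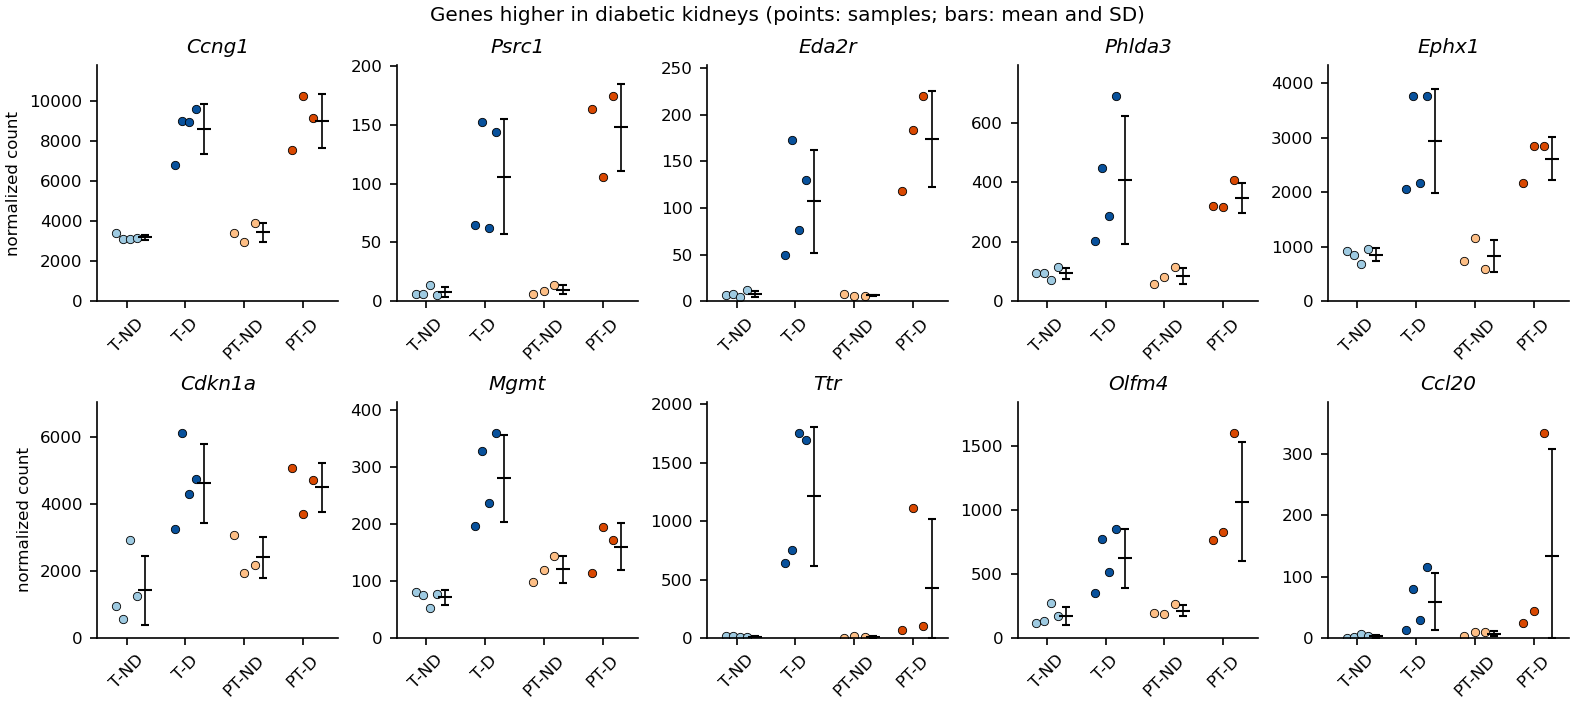
Normalized counts (vertical axes, each starting at 0) of 10 genes higher in diabetic kidneys are shown by group, with 1 point per sample and the mean and SD beside the points, the SD bar ending at 0 where it would go below. For Ccng1, Psrc1, Eda2r, Phlda3 and Ephx1 every T-D and PT-D sample lies above every T-ND and PT-ND sample, whereas Mgmt overlaps between PT-D and PT-ND.

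The consensus sequence of p53 is a pair of decamers, and the genome around the higher DEGs was searched for it, since listed p53 targets were among the higher DEGs. The windows reached 3000 bases to each side of the start of the canonical transcript in GRCm39 (GENCODE M39), and a match kept the 4 central letters of both decamers, with no spacer and up to 2 other letters off. The consensus reads the same on both strands. With up to 1 letter off, 125 of 16164 protein-coding genes tested had a match (0.773%). So had 6 of the 30 listed p53 targets, with 4 of the 10 DEGs among them. With up to 2 letters off, it was 615 genes (3.80%), 6 of the 57 protein-coding higher DEGs and 0 of the 23 protein-coding lower DEGs. Of those 6, 5 were on the p53 list, and Plcd4 was the only one off it. Of all 30 listed p53 targets 12 had such a match, so matches also lay at listed targets that were not DEGs. With no letter off it was 21 genes (0.130%), Zmat3 among them, whose match lies in an exon and is not printed. The matches outside exons at DEGs of the p53 list and at Plcd4 are given, apart from a second one at Plk2. They are on the gene's strand, 5′ to 3′, with the 20 bases of the match in capitals and 10 bases to each side. The search was added with the expression results known, and a match is no evidence of binding.
Ccng1: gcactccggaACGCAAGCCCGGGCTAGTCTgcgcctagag
Psrc1: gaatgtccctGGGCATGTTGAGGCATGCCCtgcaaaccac
Cdkn1a: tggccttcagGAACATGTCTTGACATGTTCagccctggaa
Plk2: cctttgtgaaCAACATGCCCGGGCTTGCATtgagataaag
Plcd4: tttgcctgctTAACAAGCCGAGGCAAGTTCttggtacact

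The printed stretch of Ccng1 lies at chr11:40645753-40645792 on the minus strand, in an intron 356 bases past the start. That of Psrc1 lies at chr3:108291962-108292001 on the plus strand, in an intron 852 bases past the canonical start. That of Cdkn1a lies at chr17:29309892-29309931 on the plus strand, at position −2836 from the canonical start. These 3 have 1 letter off. Plk2 (chr13:110529406-110529445, plus strand, position −1599 from the start, with a second match nearer to it) and Plcd4 (chr1:74582662-74582701, plus strand, an intron) have 2. Plcd4, a phospholipase C that was not on the p53 list, had 69.1, 85.4 and 109 in D and 15.4, 23.6 and 40.7 in ND, without overlap, and a log2 fold change of 1.82 ± 0.22 (SE, adjusted p = 0.000747).

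A gene of alkylation repair was also among the higher DEGs. Mgmt encodes the methyltransferase that removes alkyl groups from guanine. It had 114, 196 and 360.4 in D and 52.4, 80.8 and 144 in ND and a log2 fold change of 1.30 ± 0.27 (SE, adjusted p = 0.0403). It was a DEG in 5 of the 14 fits that left out 1 sample. In term mice the 4 T-D samples ranged from 196 to 360.4 and the 4 T-ND samples from 52.4 to 80.8, without overlap. In preterm mice PT-D ranged from 114 to 194 and PT-ND from 98.04 to 144, which overlap. The within-group log2 fold changes were 1.97 in term and 0.41 in preterm mice, with an interaction of −1.55 (adjusted p = 0.0317). Ddias, a suppressor of apoptosis after DNA damage, rose with 20.4, 31.9 and 56.8 in D and 5.22, 9.43 and 16.2 in ND, without overlap, and a log2 fold change of 1.81 ± 0.35 (SE, adjusted p = 0.0275). Mgmt, Ddias and Plcd4 were chosen after their values were seen. So were the p53 targets Plk2, Trp53inp1, Bbc3, Mdm2, Pmaip1, Aen, Fas, Bax, Gdf15 and Sesn2 among the listed ones, and below Ccnb2, Cdc20, Cenpf, Plk1, Aurka, Cdk1, Mki67, Pcna, Tlr2, Cd14, Ubd, Smad9, Id4, Id1, Id3, Smad6, Smad7 and BC018473.

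Genes of mitosis were higher as well. Of the 33 listed cell cycle genes, 33 were tested and 9 were DEGs, all higher, against a background of 0.269%. Their median log2 fold change was 1.19, with 1.23 in term and 1.09 in preterm mice. This list, too, was chosen with earlier results of these data known, so its share of DEGs only describes it. Birc5, which encodes survivin of the chromosomal passenger complex, had 52.8, 77.5 and 107 in D and 13.7, 27.2 and 36.5 in ND and a log2 fold change of 1.59 ± 0.27 (SE, adjusted p = 0.0139). Top2a, the topoisomerase that untangles chromosomes, had 61.8, 105 and 186 in D and 14.3, 26.01 and 58.7 in ND and a log2 fold change of 1.77 ± 0.32 (SE, adjusted p = 0.0188). Neither overlapped between the groups.

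The mitotic cyclins Ccnb1 and Ccnb2 rose by 1.74 (adjusted p = 0.0275) and 1.58 (adjusted p = 0.0307) on the log2 scale. Nuf2 of the kinetochore rose by 1.77 (adjusted p = 0.0307), Cenpf by 1.85 (adjusted p = 0.0376) and Cdc20, the activator of the anaphase-promoting complex, by 1.43 (adjusted p = 0.036). The mitotic kinases Plk1 and Aurka rose by 1.88 (adjusted p = 0.0433) and 1.11 (adjusted p = 0.0458). All of these were low, with a highest D sample of 131 for Cdc20 and 61.6 for Cenpf. Cdk1, at 1.63 (adjusted p = 0.0507), and the proliferation marker Mki67, at 1.48 (adjusted p = 0.0766), did not pass. The replication factor Pcna did not pass either, at 0.13 (adjusted p = 0.659), with 313 to 459.5 (median 357) in diabetic and 308 to 349.9 (median 335) in nondiabetic samples. The number of DEGs in this list depended on the processing and on single samples. It was 16 with DESeq2, 15 without a count filter and 3 with the replicate number as a block. It was 17 without T-ND replicate 3, 10 without T-D replicate 1, 9 without T-D replicate 4, 7 without PT-ND replicate 1, and 1 to 6 without each of the other 10 samples. The leukocyte list, which could bring dividing cells, had 0 DEGs in edgeR, with or without T-ND replicate 3, among 24 genes tested, of which 3 had an unadjusted p below 0.05 and DESeq2 called 0. Its summed level was 6506 to 18774 in diabetic and 4919 to 10110.0 in nondiabetic samples. Its part in these values was not tested.

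Several other genes rose by large factors. Ttr, which encodes transthyretin, the carrier of thyroid hormone and retinol-binding protein, had 67.5, 753 and 1757 in D and 3.13, 10.4 and 16.4 in ND and a log2 fold change of 6.35 ± 0.68 (SE, adjusted p = 0.000172). The 4 T-D samples lay between 644 and 1757. Of the PT-D samples, replicate 2 had 1109 and the other 2 had 67.5 and 104, still above all ND samples. Ttr is abundant in liver. The liver list had 0 DEGs in edgeR, with or without T-ND replicate 3, among 5 genes tested, of which 1 had an unadjusted p below 0.05 and DESeq2 called 1. Its summed level was 254 to 1308 in diabetic and 296 to 657 in nondiabetic samples, and the albumin gene Alb had 125 to 594 (median 199) in diabetic and 171 to 267 (median 211) in nondiabetic samples.

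Olfm4, an olfactomedin secreted by epithelia, had 348, 773 and 1605 in D and 114, 185 and 275 in ND, without overlap, and a log2 fold change of 2.05 ± 0.25 (SE, adjusted p = 0.000747). Ccl20, a chemokine, had 12.5, 43.6 and 335 in D and 0, 3.22 and 9.23 in ND and a log2 fold change of 4.26 ± 0.70 (SE, adjusted p = 0.0104). The ND samples of Ccl20 are near the limit of detection. Klf6, a transcription factor, rose by 1.41 (adjusted p = 0.0061), and the secreted chaperone Clu by 1.04 (adjusted p = 0.0117), from 4218, 6766 and 8121 in ND to 8141, 13688 and 16389.8 in D. Sulf2, a heparan sulfate endosulfatase, rose by 1.01 (adjusted p = 0.00389), and Dusp8, a phosphatase of stress-activated kinases, by 1.46 (adjusted p = 0.00989). Sulf2 was a DEG in 9 of the 14 fits that left out 1 sample. Acsf2, an acyl-CoA synthetase, rose by 1.14 (adjusted p = 0.00785), the carboxylesterase Ces2e by 1.36 (adjusted p = 0.00406) and the acetyltransferase Nat8f2 by 1.27 (adjusted p = 0.00565). Ces2e and Nat8f2 belong to families of near-identical copies between which reads can be split, so their values are less certain.

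Among 20 tubular injury markers tested, Clu was the only DEG, against a background of 0.269%. DESeq2 called 3. In edgeR 3 were DEGs without T-ND replicate 3 or T-D replicate 1, and 0 without T-ND replicate 1, PT-ND replicate 3 or PT-D replicate 3. Spp1, which encodes osteopontin, passed by adjusted p alone at 0.67 (adjusted p = 0.036) with 36398 to 63922 (median 52699) in diabetic and 27324 to 38695 (median 31369.5) in nondiabetic samples. The median of the list was 0.43. Lcn2, which encodes the injury marker NGAL, had 890.1 to 6790.2 (median 3048) in diabetic and 178 to 3105 (median 605) in nondiabetic samples and did not pass at 2.20 (adjusted p = 0.0845). Havcr1, which encodes the injury marker KIM-1, did not pass at −1.36 (adjusted p = 0.779) and went opposite ways, with −3.95 in term and 3.24 in preterm mice and an interaction of 7.18 (adjusted p = 0.0187). Its 4 T-ND samples had 2638, 2475, 1304 and 56.97, its T-D samples 39.6 to 202, its PT-ND samples 82.6 to 121, and its PT-D samples 97.6, 1599 and 1312. High and low samples thus occurred in T-ND and in PT-D.

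Among 23 genes of NF-kB signaling, chemokines and the acute phase, Ccl20 was the only DEG. DESeq2 called 4, all higher, and edgeR 5 without a count filter. Without T-ND replicate 3 there were 8 DEGs, all higher, without T-D replicate 1 there were 3 and without T-D replicate 4 there were 2. The median of the list was 0.84, with 1.32 in term and 0.13 in preterm mice, and 8 of its genes had a called interaction, against 4.45% of all genes. Complement C3 had a log2 fold change of 2.04 (adjusted p = 0.0564) and did not pass. Off the list, the DEGs included the lipopeptide receptor Tlr2 at 1.55 (adjusted p = 0.0338), the endotoxin receptor Cd14 at 1.54 (adjusted p = 0.0401) and the ubiquitin-like Ubd at 2.78 (adjusted p = 0.0307). These 3 genes were picked after their values were seen, so they add nothing to the result of the list. They were DEGs in 6, 5 and 7 of the 14 fits that left out 1 sample. The interferon-stimulated list had 0 DEGs in edgeR and 2 in DESeq2 among 15 genes tested, and 14 of the 15 had a positive estimate with an unadjusted p below 0.05. Its median was 1.10. Ifit1 had 3807 to 13003 (median 7242) in diabetic and 677 to 12429 (median 1666) in nondiabetic samples, and T-ND replicate 3 was its highest ND sample. Without that sample 13 of the 15 interferon-stimulated genes were DEGs, all higher.

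Smad9, Id2 and Id4, which are known from bone morphogenetic protein (BMP) signaling, were lower DEGs. Smad9 encodes a receptor-regulated SMAD of the BMP pathway. It had 1.82, 6.44 and 11.3 in D and 20.95, 33.8 and 45.2 in ND, so that no sample overlapped, and a log2 fold change of −2.28 ± 0.36 (SE, adjusted p = 0.00849), with −2.26 in term and −2.32 in preterm mice. It stayed a DEG whichever of the 14 samples was left out. Id2, an inhibitor of DNA binding that BMPs induce, fell from 5066, 7532 and 8784 in ND to 2042, 3278 and 5329 in D, which overlap, with a log2 fold change of −1.05 ± 0.19 (SE, adjusted p = 0.0177). Id4, of the same family, fell from 780.4, 953 and 1242 in ND to 146, 370.5 and 932 in D, also with overlap, and had a log2 fold change of −1.25 ± 0.26 (SE, adjusted p = 0.0401). It was a DEG in 3 of the 14 fits that left out 1 sample. The other 2 members, Id1 at −0.78 (adjusted p = 0.131) and Id3 at −0.66 (adjusted p = 0.168), did not pass, nor did the inhibitory SMAD genes Smad6 at −0.41 (adjusted p = 0.404) and Smad7 at −0.24 (adjusted p = 0.672). These genes were grouped after their values were seen, so the grouping carries no test.

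Gpc5, a heparan sulfate proteoglycan of the glypican family, had 7.52, 23.2 and 29.6 in D and 32.2, 234 and 409 in ND, without overlap, and a log2 fold change of −2.94 ± 0.53 (SE, adjusted p = 0.0202). The PT-ND samples had 299 to 409, whereas 3 of the 4 T-ND samples had 32.2 to 53.9, so its within-group log2 fold changes were −1.92 in term and −4.25 in preterm mice. Hsd17b14, a steroid and alcohol dehydrogenase, had 110.4, 259.9 and 511 in D and 532, 654 and 968 in ND, without overlap, and a log2 fold change of −1.49 ± 0.24 (SE, adjusted p = 0.00976). Esm1, the endothelial proteoglycan endocan, had 109, 275 and 347 in D and 388, 541 and 677 in ND, without overlap, and a log2 fold change of −1.12 ± 0.20 (SE, adjusted p = 0.0177). Cish, a feedback inhibitor of cytokine receptors, fell by 1.16 (adjusted p = 0.0177) and Slc6a15, an amino acid transporter, by 1.31 (adjusted p = 0.0241) on the log2 scale. Gpc5 was a DEG in 10, Esm1 in 11 and Slc6a15 in 8 of the 14 fits that left out 1 sample.

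Further lower DEGs belonged to no list. Igf2, an imprinted growth factor, had 5.47, 45.1 and 79.3 in D and 77.3, 135 and 300.5 in ND, so that the highest D sample lay just above the lowest ND sample. Its log2 fold change was −1.99 ± 0.41 (SE, adjusted p = 0.0398). Phlda2, another imprinted gene and a brake on placental growth, had a log2 fold change of −1.37 (adjusted p = 0.0231). Sp5, a transcription factor that Wnt signals induce, was at −1.03 (adjusted p = 0.036) and Chst3, a chondroitin sulfotransferase, at −1.52 (adjusted p = 0.036). Phlda2, Sp5 and Chst3 overlapped between D and ND. Igf2 was a DEG in 6, Phlda2 in 9, Sp5 in 5 and Chst3 in 5 of the 14 fits that left out 1 sample.

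Of the 18 genes of the loop of Henle and distal convoluted tubule, 2 were DEGs, both lower, against a background of 0.134%. Casr, the calcium-sensing receptor of the thick ascending limb, had 96.8, 172 and 335 in D and 299, 460.0 and 556 in ND and a log2 fold change of −1.14 ± 0.22 (SE, adjusted p = 0.0337). Cldn19, a claudin of its tight junctions, had a log2 fold change of −1.26 ± 0.28 (SE, adjusted p = 0.0458). Umod, which encodes uromodulin, had 11486 to 34754 (median 17841) in diabetic and 25114 to 52304 (median 36513) in nondiabetic samples and did not pass at −0.84 (adjusted p = 0.0583). The median of the 18 was −0.16, and without T-ND replicate 3 the list also had 2 DEGs, both lower. Casr was a DEG in 6 and Cldn19 in 4 of the 14 fits that left out 1 sample. Neither was one without T-ND replicate 1 or 2, T-D replicate 2 or 3, PT-ND replicate 1 or 2, or PT-D replicate 2 or 3. The collecting duct list had 0 DEGs in edgeR among 20 genes tested, of which 5 had an unadjusted p below 0.05 and DESeq2 called 0, and a median of −0.26. Without T-ND replicate 3 it had 1. The proximal tubule list had 0 DEGs in edgeR among 22, with or without T-ND replicate 3, of which 5 had an unadjusted p below 0.05 and DESeq2 called 0, and a median of 0.00. Of those 5, 1 was higher and 4 were lower. Its summed level was 302380 to 734990 (median 460480) in diabetic and 540300 to 733720 (median 704640) in nondiabetic samples.

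H2-Ea, a class II histocompatibility gene, passed the thresholds at −5.00 (adjusted p = 0.0353), but it was at 0 in 7 of the 8 term samples. Only PT-ND replicates 2 and 3, at 861 and 867, were above 100. BC018473 was at 0 in 10 of the 14 samples and had 294, 1147 and 820.4 in the PT-ND samples. Its log2 fold change was −9.63 in edgeR and −0.98 in DESeq2, where it did not pass (adjusted p = 0.913). It was the one DEG whose direction differed between birth groups.

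**Figure D3:**
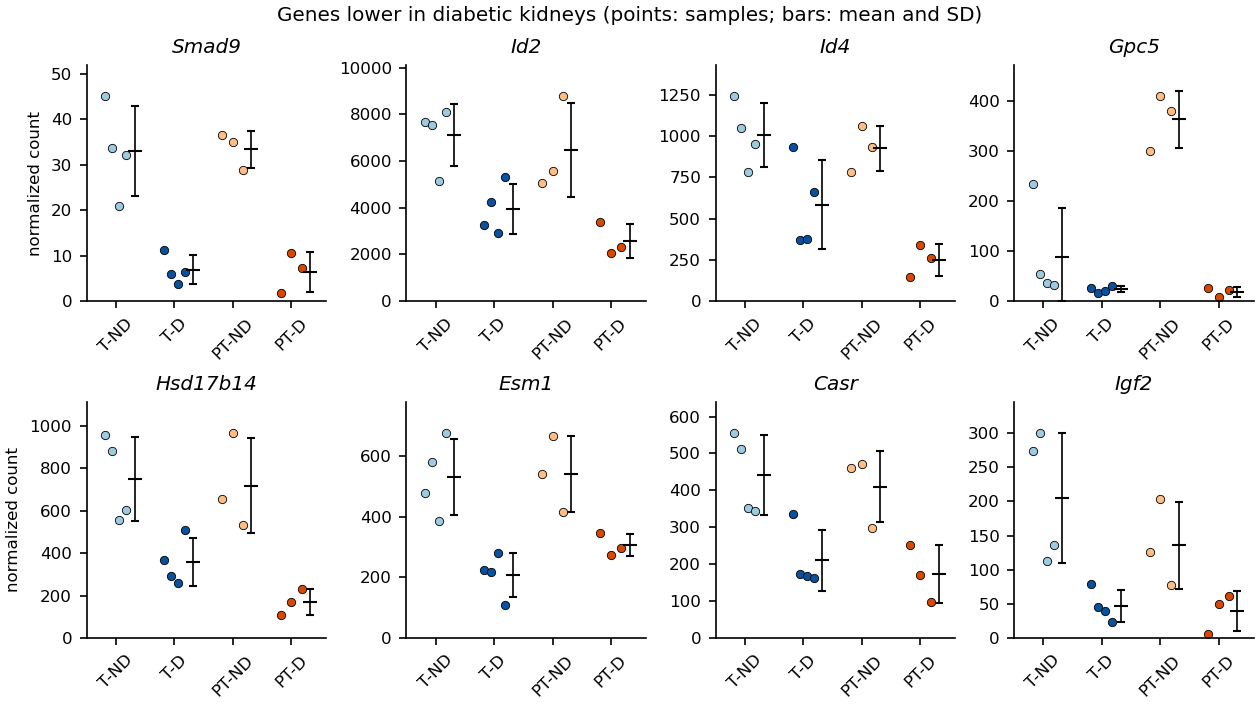
Normalized counts (vertical axes, each starting at 0) of 8 genes lower in diabetic kidneys are shown by group, with 1 point per sample and the mean and SD beside the points, the SD bar ending at 0 where it would go below. Smad9 is below 12 in every diabetic sample and above 20 in every nondiabetic one, whereas Gpc5 is high mainly in PT-ND.

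Glucose handling gave no DEG in this comparison. Of the 21 genes of glucose transport, gluconeogenesis and sugar handling tested, 0 were DEGs in edgeR, with or without T-ND replicate 3, or in DESeq2, 0 passed by adjusted p in edgeR, and 2 had an unadjusted p below 0.05. The median was −0.02. Slc2a2, the gene of GLUT2, had 1783 to 3817 (median 2998) in diabetic and 1622 to 2858 (median 1963) in nondiabetic samples, and a log2 fold change of 0.47 ± 0.16 (SE, adjusted p = 0.175). The sodium-glucose cotransporter genes Slc5a2 and Slc5a1 had 0.24 (adjusted p = 0.429) and 0.39 (adjusted p = 0.368), and Slc2a1 had −0.57 (adjusted p = 0.0802). Pck1, the gene of the rate-limiting enzyme of gluconeogenesis, had −0.11 ± 0.27 (SE, adjusted p = 0.905). Txnip, which glucose induces through ChREBP, had 6146 to 9722 (median 7572) in diabetic and 3650.1 to 9922 (median 4022) in nondiabetic samples and a log2 fold change of 0.51 (adjusted p = 0.264), with 0.93 in term and −0.05 in preterm mice. None of these passed, and all overlapped between D and ND.

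Of 30 genes of fatty acid oxidation and other PPARA targets, Angptl4, an inhibitor of lipoprotein lipase, was the only DEG, and without T-ND replicate 3 there were 2. It had 4691, 5479 and 6669.7 in D and 880.5, 2866 and 3664 in ND, without overlap, and a log2 fold change of 1.11 ± 0.25 (SE, adjusted p = 0.0495). It was a DEG in 3 of the 14 fits that left out 1 sample. Of 22 NRF2 and antioxidant genes, Ephx1 was the only DEG, with 2 without T-ND replicate 3, and Hmox1, the heme oxygenase gene, was at −1.64 (adjusted p = 0.442). For Col1a1 of the matrix the value was 0.62 (adjusted p = 0.505), for the renin gene Ren1 0.66 (adjusted p = 0.162) and for the podocyte gene Nphs1 0.72 (adjusted p = 0.222), none of which passed.

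The remaining lists held few or no DEGs. In each bracket the first number counts genes at an unadjusted p below 0.05 in edgeR the second the DEGs in DESeq2, and the third the DEGs in edgeR without T-ND replicate 3. The edgeR DEGs were 0 of 23 (8, 1, 2) in the matrix list, 0 of 11 (6, 1, 0) in the renin-angiotensin list and 0 of 17 (7, 0, 0) in the podocyte list. They were 0 of 19 (3, 0, 1) in the endothelial list, 0 of 19 (5, 1, 1) in cholesterol and fatty acid synthesis and 0 of 15 (4, 0, 0) in ATF4 and endoplasmic reticulum stress. For the circadian clock they were 0 of 19 (7, 0, 1), for ChREBP targets and insulin signaling 0 of 18 (6, 0, 1) and for osmolyte genes 0 of 9 (1, 0, 0). Cytochrome P450 and conjugation enzymes had 0 of 25 (11, 2, 1), with Ugt2b38, which has close copies, past the adjusted p alone at 0.96 (adjusted p = 0.0433). The mitochondrially encoded mRNAs had 0 of 13 (2, 0, 0) and a median of 0.29. The calcium and vitamin D list held Casr only among 13 tested (5, 2, 2) and the immediate early list Klf6 only among 19 (6, 1, 2). Of 13 male-biased kidney genes, Cyp4a12b was a DEG at 2.59 (adjusted p = 0.0458), though it can share reads with close copies. The bracket for these 13 was (10, 5, 3), and of the 10 genes at an unadjusted p below 0.05, 6 were higher and 4 lower. Cyp4a12b was a DEG in 4 of the 14 fits that left out 1 sample. The female-biased kidney genes had 0 of 6 (3, 1, 1) and a median of −0.76, and the prolactin receptor gene Prlr had 717 to 2115 (median 1398) in diabetic and 1799 to 3898 (median 2777) in nondiabetic samples at −1.002 (adjusted p = 0.054).

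Markers of tissues that could have come along with the kidney were summed. Erythroid genes had 1508 to 20020.0 in diabetic and 224 to 10513 in nondiabetic samples, with edgeR DEGs of 0 of 5 (4, 0, 0) and a median log2 fold change of 1.48. Adipocyte genes had 8.21 to 4939 in diabetic and 8.38 to 5192 in nondiabetic samples, with 0 of 6 (0, 0, 0). Adrenal cortex genes had 41.6 to 97.05 in diabetic and 50.9 to 83.4 in nondiabetic samples, with 0 of 4 (0, 0, 0). Skeletal muscle genes had 20.6 to 68.2 in diabetic and 19.01 to 40.4 in nondiabetic samples, with 0 of 5 (2, 0, 0). Hba-a2, Cyp11b1, Cyp11b2, Ahsg and Myh4 were not among the genes tested. The part of these tissues in the results was not tested.

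**Figure D4:**
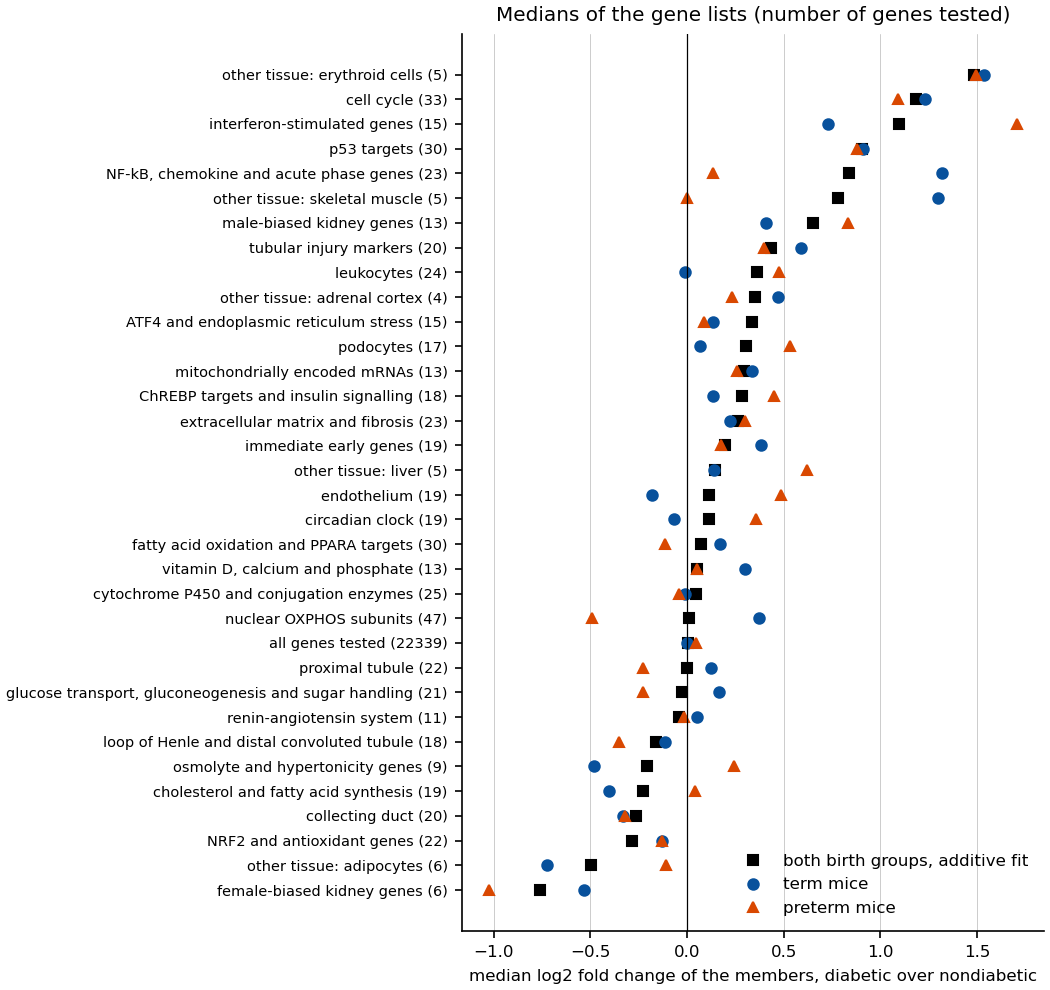
The median log2 fold change of each gene list (horizontal axis, diabetic over nondiabetic) is shown for the additive fit (squares), term mice (circles) and preterm mice (triangles), with the number of genes tested in brackets. The 3 medians of the p53 targets lie together between 0.88 and 0.91, whereas those of the nuclear OXPHOS subunits lie apart, at 0.37 in term and −0.49 in preterm mice.

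How far the STZ effect was shared was read from the effects within each birth group, which share no samples. Among the 60 higher DEGs, 59 had an unadjusted p below 0.05 in both birth groups, and among the 30 lower DEGs 26 had. In all, 89 of the 90 DEGs had the same direction in both. Since these samples chose the DEGs, those counts only describe them. Over the 12169 genes averaging 50 or more normalized counts, the log2 fold changes of term and preterm mice were nearly unrelated, with a Pearson r of 0.016 and a Spearman rho of −0.107 across genes, and 41.7% of the genes had the same direction. The SD of the log2 fold changes was 0.455 in term and 0.686 in preterm mice.

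The difference between the effects was itself tested. The interaction term passed both thresholds for 993 genes (4.45%), of which 937 had opposite signs in the 2 birth groups and 4 were also DEGs of the additive fit. Besides the NF-kB list, other lists held such genes, 4 of the 20 tubular injury markers and 3 of the 19 endothelial genes among them. The nuclear OXPHOS subunits held several too. Of 47 tested, 47 had a positive estimate in term and 1 in preterm mice, 9 had a called interaction, and the median over both was 0.01, with 0 DEGs in edgeR, with or without T-ND replicate 3, or in DESeq2 and 0 genes at an unadjusted p below 0.05. Ndufb8 of complex I had 0.32 in term and −1.08 in preterm mice and an interaction of −1.41 (adjusted p = 0.0219). Of the 30 p53 targets, Zmat3 alone had a called interaction. A call that is missing does not show that effects are equal.

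**Figure D5:**
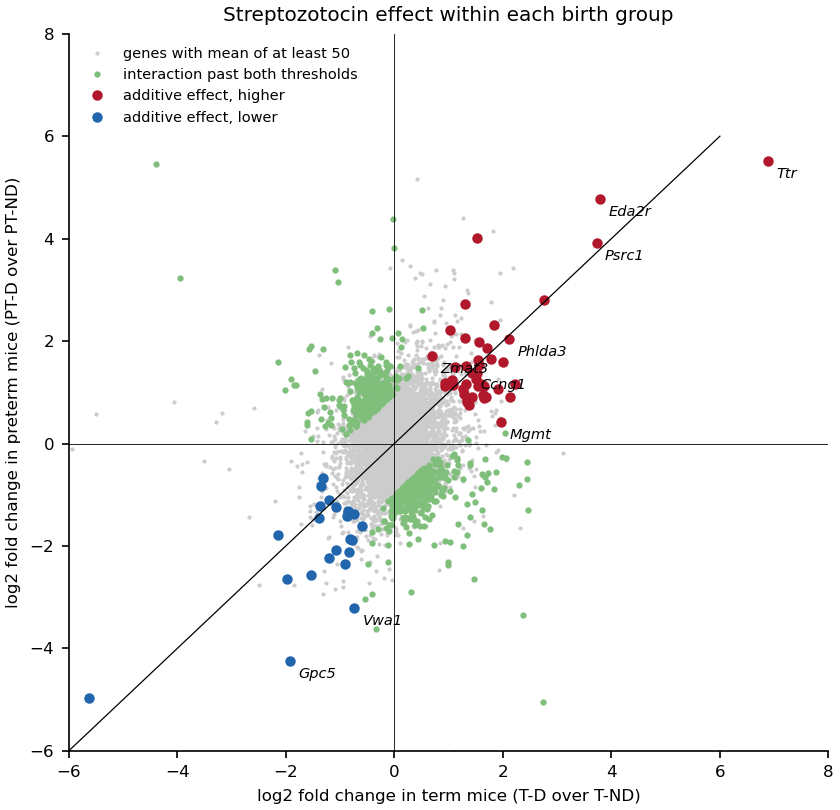
Each point is 1 of the 12169 genes averaging 50 or more normalized counts, with its log2 fold change in term mice on the horizontal and in preterm mice on the vertical axis, and 7 genes fall outside the axes. Higher (red) and lower (blue) DEGs of the additive fit lie in the quadrants of equal sign apart from BC018473, near the diagonal for Psrc1, Ccng1 and Phlda3, and most genes with a called interaction (green) lie in the quadrants of opposite sign.

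The library names of 5 samples carry the suffix a, which is not explained, and each group holds samples with and without it. In the 9 samples without it there were 10 higher and 0 lower DEGs, and in the 5 samples with it 2 higher and 1 lower. All 90 DEGs had the same direction in both subsets, and 79 and 75 of them were past the fold threshold there. These subsets are parts of the samples that chose the genes.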

How the data were processed

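Per the labels, RNA of whole kidneys was enriched for poly(A) and sequenced from 14 mice. The authors aligned the reads with STAR to GRCm39 (submitters' processing notes) with GENCODE M36 and deposited read counts per gene. The unstranded column was used, so a gene and its antisense partner cannot be told apart, and the rows of unassigned reads were left out. GENCODE M39 gave symbols for 56236 of 56980 gene IDs.

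Genes with a total above 10 counts (22339) entered edgeR 4.0.16 (R 4.3.3) with TMM normalization and the quasi-likelihood test, with Benjamini-Hochberg adjustment over all of them. Terms were STZ and birth group. A second fit with an effect of STZ in each birth group gave the interaction, preterm minus term. Normalized counts are counts divided by the effective library size and multiplied by the mean effective size. SE is that of the log2 fold change. Tested on simulated data over 21598 genes, 95% of 200 genes changed by 2 on the log2 scale were recovered with 9 false calls. The simulation held no birth effect and no interaction, and changes near the fold threshold were not simulated. Samples came from separate mice. The comparisons were run again with DESeq2 1.42.0, other scalings, filters and covariates, a replicate block, and with each sample left out.

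Genes named were, with a mean of at least 100, the 12 DEGs per direction of smallest adjusted p with 1 direction in both birth groups, up to 4 per list with a mean of at least 10, 12 fixed genes and 5 interaction genes per direction. Further genes were chosen after their values were seen. Members, the 34 gene lists and tests were chosen with earlier results of these data known. The p53 search used GRCm39, with the letters allowed off set to 0, 1 or 2 after looking at matches.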

Additional observations from a re-analysis of the deposited data

Results flagged for a closer look

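In 46 named genes the 7 diabetic and the 7 nondiabetic samples were each checked for a sample far from the others by Dixon's criterion. Of these 92 groups, 4 held one, and chance gives about 1 in 20. T-D replicate 4 lay apart for Esm1, at 109 normalized counts, and for the podocyte gene Nphs1, at 185. PT-D replicate 2 lay apart for Gpc5, at 7.52, and T-ND replicate 3 for the glucose cotransporter gene Slc5a1, at 2080.

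The effect of STZ differed between birth groups by the interaction test in 993 genes. The values below are the log2 fold change of preterm minus that of term mice, all with an adjusted p below 0.05 in edgeR. Among genes named in the report it was 1.00 for Zmat3, −1.55 for Mgmt, 1.20 for Smad7, −1.41 for Ndufb8, 7.18 for Havcr1 and −14.95 for BC018473. BC018473 was at 0 in all PT-D and all T-ND samples, so its fitted size is no bound. Other genes were Vwa1, a matrix protein, at −2.47, Aldh1a7, an aldehyde dehydrogenase, at 1.72, and Cd2ap of the podocyte slit diaphragm at 0.94, which is below the fold threshold. The genes with the smallest adjusted p were Lama3 (3.82), a laminin chain, 4931408D14Rik (3.73), Gm21399 (4.40), Exoc3l2 (3.43) and B3galnt2 (1.55), more positive in preterm mice. More negative were Ch25h (−3.36), cholesterol 25-hydroxylase, Crym (−2.75), Nfkbia (−1.94), the inhibitor of NF-kB, Jdp2 (−1.76) and Fgfrl1 (−1.28).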

How the results depend on the processing

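The 60 higher and 30 lower DEGs became 243 and 152 with DESeq2, which held 88 of the 90, 189 and 103 without a count filter, and 93 and 44 by adjusted p alone, and 17 were lower without the birth covariate. They were 10 and 0 in the samples without the suffix and 2 and 1 in those with it, 2 alternatives chosen after seeing the data. Leaving out each replicate gave 24 to 352 higher, 6 to 118 lower and 76 to 1246 interaction genes. The higher count moved by over 1.5 times without T-ND replicates 1 (27), 2 (32), 3 (352) and 4 (35), T-D 1 (97), 2 (25) and 3 (31), PT-ND 2 (26) and 3 (37) and PT-D 2 (35) and 3 (24), and the lower count moved so without each of the 14 samples. The size of the list thus rests on single samples, and the cause was not tested. The interaction count was 1645 with DESeq2. It fell by over 1.5 times without T-ND replicates 1 (527), 3 (555) and 4 (438), T-D 3 (439) and 4 (631), PT-ND 2 (285) and 3 (111) and PT-D 2 (323) and 3 (76). Of the 90, 27 were DEGs in all 14 of these fits, Ccng1, Psrc1, Eda2r, Phlda3, Ephx1, Zmat3, Ttr and Smad9 among them.

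With the replicate number as a block, 31 were higher, 11 lower and 563 had an interaction, and 38 of the 90 DEGs stayed. Nothing in the sources used here pairs same-numbered samples, whose correlations were −0.321 to 0.297 over 7 pairs of samples. Litter mates of treated mice served as controls, and the litter of each sample is not given. Leaving out each sample gave Pck1 log2 fold changes of −0.26 to 0.06 and Alb of −0.07 to 0.23, both changing sign (0.059 for Pck1 without T-ND replicate 3, −0.072 for Alb without PT-D replicate 2). The other scalings and the filter of edgeR moved each count by under 1.5 times. Genes with fewer counts are limited by depth.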

Other observations

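Hmox1, the heme oxygenase gene that free heme induces, was high in all preterm samples and in T-ND replicates 1 and 2 and low in the other term samples, and did not follow STZ. Its 4 T-ND samples had 79419.7, 72243, 1539 and 2674 normalized counts and its 4 T-D samples 3599, 6651, 4704 and 2232. Its PT-ND samples had 27214, 41303 and 69172, and its PT-D samples 59759, 70854 and 76462.

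Motifs of mitotic promoters were counted in the 250 bases before the start of each protein-coding gene tested, on both strands. TTTGAA, the core of the cell cycle homology region, was present in 3 of the 9 cell cycle DEGs and in 2103 of all 16164 genes. CCAAT was present in 3 of the 9 and in 35.4% of all genes. Among the 57 protein-coding higher DEGs CCAAT was present in 29 (50.9%), and among the 23 lower ones in 7 (30.4%). These are descriptions with no test.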
